A study of Mus musculus with 12 samples.

Results

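The comparison described here set spinal cords of mice in which Ddx20 had been targeted against spinal cords of control mice, 4.5 weeks after tamoxifen. It used 6 of the 12 libraries of the study, 3 from control mice and 3 from mice labelled cKO, all genes of the 4.5-week count table, and a fit of that table alone. The mice labelled cKO came from a cross of mice with loxP-flanked Ddx20 alleles (Ddx20 flox/flox) to Plp-CreER transgenic mice, whose Cre recombinase is made in myelinating glia and acts only after tamoxifen. The genotype and tamoxifen treatment of the control mice, the ages of the animals and the tamoxifen dose are not given in the sources used here. The other 6 libraries of the study, from 4 weeks after tamoxifen, entered only where an effect at 4.5 weeks was tested against the effect at 4 weeks. All 6 libraries of 4.5 weeks held 16090 to 30525 counts of Xist, the transcript that silences an X chromosome in females.

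Ddx20 encodes Gemin3, a helicase of the complex that carries the SMN protein and loads Sm proteins onto the small nuclear RNAs of the spliceosome. Plp-CreER removes loxP-flanked DNA in cells of the oligodendrocyte lineage, which wrap spinal axons in myelin, so most other cells of the cord keep the gene. When myelin is lost, its lipids and proteins are taken up by phagocytes, digested in lysosomes and partly exported again as cholesterol on lipoprotein particles, while progenitors divide and replace oligodendrocytes. Whole cord was sequenced, so fewer cells of a type and less transcript per cell cannot be told apart in any value given here.

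The libraries held 34910498 to 47677267 counts, and 18557 genes were tested after a filter on low counts. Levels are given as CPM, counts scaled to 1000000 per library after scaling by trimmed mean of M values, and fold changes as log2 of labelled cKO over control with the standard error (SE) of edgeR's quasi-likelihood test. A gene was called, and is described as having risen or fallen, at a Benjamini-Hochberg adjusted p below 0.05 over all genes tested. The first principal component held 86.1% of the variance and placed the controls at -78, -92.2 and -96.7 and the libraries labelled cKO at 91.2, 88.6 and 87.2. Control library 1 stood apart on the second component, which held 5.35% of the variance, and carried transcripts of neighbouring tissue that are described with their values below.

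The targeted transcript was not lower. Ddx20 held 9.14, 10.4 and 9.42 CPM in the controls and 12.3, 11 and 13.2 CPM in the libraries labelled cKO, so that all 3 of the latter were higher (log2 fold change 0.33, SE 0.11, adjusted p 0.0204; exact 2-sided permutation test of CPM, p 0.1, the smallest p that 3 against 3 libraries allow). The adjusted p rose to 0.0575 and 0.0614 when control 1 or control 3 was dropped, and to 0.0558 and 0.0716 when cKO 1 or cKO 3 was dropped, and the gene was not called against a 1.5-fold change. Gene-level counts cannot show the loss of an exon, and the gene remains intact in cells without Cre. Of 9 tested genes of the SMN complex, Smn1 (0.49, SE 0.11, adjusted p 0.00305) and Ddx20 were higher, Strap, which helps assemble the complex, was lower (-0.33, SE 0.047, adjusted p 0.000241), and 6 Gemin genes were not called.

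The response covered most of the transcriptome. Of the 18557 genes, 6495 were higher in the libraries labelled cKO (35% of those tested) and 6230 were lower (33.6%), so 68.6% were called. The median log2 fold change of all genes was 0.027. The scaling sets the bulk of genes near 0, so this median and the near balance of rises and falls partly follow from it. Whether total RNA per cord changed was not tested. A change of at least 2-fold was called for 3162 genes that rose (17%) and for 2077 genes that fell (11.2%). For 13752 genes the values of the 2 groups did not overlap (74.1%). Genes called higher held 18.66%, 18.22% and 17.75% of the counts of the controls, and 43.74%, 42.89% and 42.42% of the counts of the libraries labelled cKO. Genes called lower held 63%, 63.69% and 64.46% of the counts in the controls and 37.12%, 38.1% and 38.54% in the libraries labelled cKO. With such shares of genes called, counts of list members are read below against 35% and 33.6%. A member near 0 in the controls could pass the filter through the libraries labelled cKO alone, and could then hardly be called lower.

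Named below are the largest changes among called genes whose log2 CPM averaged 1 or more, whose groups were disjoint and whose symbol is not provisional. Under these conditions the largest rises were mostly genes of phagocytes. Cst7, an inhibitor of lysosomal proteases made by activated microglia, held 0.125, 0.0511 and 0.13 CPM in the controls and 80.2, 77 and 64.6 CPM in the libraries labelled cKO (log2 fold change 9.43, SE 0.18, adjusted p 2.74e-09). Gpnmb, a membrane glycoprotein of lipid-laden macrophages, held 3.43, 3.6 and 3.84 CPM and 2370, 2310 and 2460 CPM (log2 fold change 9.36, SE 0.083, adjusted p 2.09e-10). The groups were far apart for both genes, and the 3 libraries labelled cKO differed from one another by little beside that gap. Behind them came the stress hormone Gdf15, the sialic acid receptor Cd22, the membrane receptor Stra6l, the inhibitory receptor Lilrb4a, the beta-glucan receptor Clec7a, the integrin Itgax, the Fc receptor Fcgr4, the protease inhibitor Timp1, the sialic acid receptor Siglec1 and the scavenger receptor Msr1. Their log2 fold changes ran from 8.47 for Gdf15 to 7.23 for Msr1. For Siglec1 the controls were uneven, at 1.68, 0.281 and 0.13 CPM, against 115, 110 and 91.2 CPM in the libraries labelled cKO. Reads of Lilrb4a are uncertain because a close copy of the gene lies beside it.

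**Figure D1:**
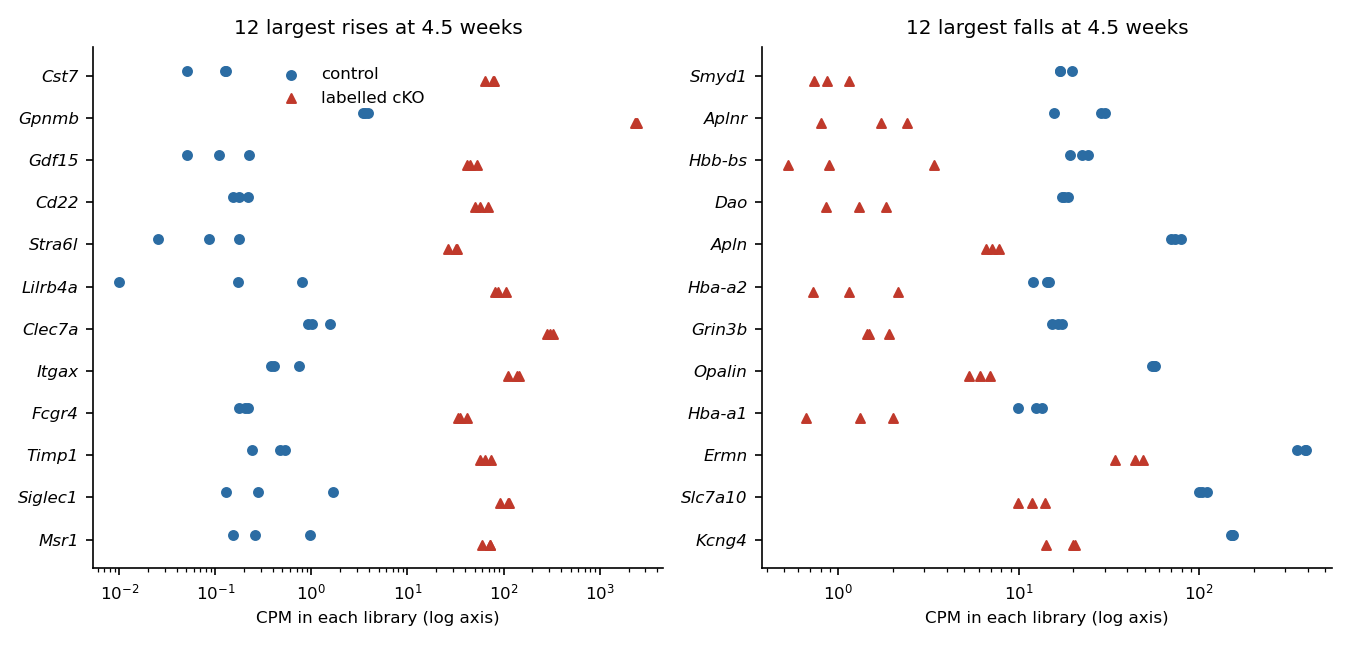
CPM on a log axis (0 drawn at the left edge) in each of the 3 control libraries (circles) and the 3 libraries labelled cKO (triangles) for the 12 genes with the largest rise and the 12 with the largest fall in log2 fold change among called genes whose log2 CPM averaged 1 or more and whose groups were disjoint. Gpnmb has the highest level in the libraries labelled cKO among the rises, and the globin genes Hbb-bs, Hba-a1 and Hba-a2 are highest in cKO library 2 of their group.

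In CPM, which is not corrected for gene length, 8 genes gained most: Apoe, Ctsd, Ctsb, Spp1, Eef1a1, Gpnmb, Psap and Ftl1. They made up 0.652%, 0.6085% and 0.6104% of the counts of the controls and 6.325%, 5.855% and 5.574% of the counts of the libraries labelled cKO. Apoe, the main apolipoprotein of the nervous system, held 1830, 1640 and 1650 CPM in the controls and 27200, 19900 and 19400 CPM in the libraries labelled cKO (log2 fold change 3.70, SE 0.14, adjusted p 8.96e-08). Ctsd, an aspartic protease of lysosomes, rose from 509, 450 and 467 CPM to 12600, 13100 and 10900 CPM (log2 fold change 4.68, SE 0.098, adjusted p 3.67e-09). For the secreted phosphoprotein Spp1 the levels were 151, 131 and 132 CPM and 3800, 5700 and 5740 CPM (log2 fold change 5.201, SE 0.18, adjusted p 5.3e-08), with cKO library 1 the lowest of its group but far above every control. Ftl1, the light chain of the iron store ferritin, held 260, 220 and 231 CPM and 2540, 2690 and 2550 CPM (log2 fold change 3.45, SE 0.079, adjusted p 5.79e-09), and its reads may be shared with processed pseudogenes.

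Lysosomal genes rose together, but the proton pump of the lysosome did not follow. Of 12 cathepsins, the proteases of the lysosome, 11 rose and 1 fell, with a median log2 fold change of 3.53 against 0.027 over all genes. Ctsz rose from 44.4, 38 and 42.3 CPM to 873, 961 and 877 CPM (log2 fold change 4.44, SE 0.081, adjusted p 2.18e-09), and Ctss from 77.8, 71.4 and 74.6 CPM to 1600, 1370 and 1420 CPM (log2 fold change 4.29, SE 0.081, adjusted p 2.51e-09). The exception was Ctsk, the collagen-cleaving cathepsin of osteoclasts, at 8.92, 6.08 and 5.58 CPM in the controls and 4.41, 4.68 and 3.83 CPM in the libraries labelled cKO (log2 fold change -0.67, SE 0.2, adjusted p 0.014; adjusted p 0.0505 without cKO library 3). Of 15 tested genes that break down sphingolipids and other lipids in lysosomes 13 rose and 1 fell (median 1.57). Ctsa, which protects sialidase and beta-galactosidase, rose from 112, 93.6 and 104 CPM to 843, 810 and 778 CPM (log2 fold change 2.97, SE 0.078, adjusted p 1.24e-08). Smpd1, the acid sphingomyelinase, was the member that fell (-0.25, SE 0.049, adjusted p 0.00168), and Arsa, the sulfatide sulfatase, was not called. Of 20 proton pump subunits and accessory proteins, by contrast, 6 rose and 12 fell, with a median of -0.47. Atp6v0d2, a subunit used by macrophages and osteoclasts, held 0.0501, 0.0767 and 0.0217 CPM and 22, 19.9 and 21.7 CPM (log2 fold change 8.70, SE 0.21, adjusted p 8.35e-09), whereas Atp6v1g2, the subunit of neurons, fell from 233, 240 and 254 CPM to 76.7, 92.5 and 99.1 CPM (log2 fold change -1.44, SE 0.091, adjusted p 1.48e-06).

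The promoters of these lysosomal genes were searched for the E-box that the lysosomal regulator TFEB and related factors are known to bind, because the genes rose together. The letters TCACGTG were sought on both strands in the 250 bases before the transcription start site of RefSeq (build GRCm38.p6), and since these letters nearly repeat on the other strand, 1 site can match on both. They were present for 666 of 12728 tested genes with a promoter sequence (5.23%), for 4 of 11 genes of lysosomal lipid breakdown (36.4%) and for 2 of 9 cathepsins (22.2%). Ctsa is in both of these lists, and Arsa, 1 of the 4, was not called. The 2 cathepsin promoters that held the letters are shown because Ctsd had the largest gain in CPM after Apoe and Ctsa is shared by both lists, written 5′ to 3′ on the strand of the gene with the matched letters in capitals: Ctsd at chr7:142387828-142388077 on the minus strand and Ctsa at chr2:164833523-164833772 on the plus strand.
Ctsd: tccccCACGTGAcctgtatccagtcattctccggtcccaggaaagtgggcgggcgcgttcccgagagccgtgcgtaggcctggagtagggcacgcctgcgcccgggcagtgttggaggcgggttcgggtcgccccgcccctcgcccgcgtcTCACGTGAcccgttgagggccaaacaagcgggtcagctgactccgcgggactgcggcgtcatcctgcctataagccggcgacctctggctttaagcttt
Ctsa: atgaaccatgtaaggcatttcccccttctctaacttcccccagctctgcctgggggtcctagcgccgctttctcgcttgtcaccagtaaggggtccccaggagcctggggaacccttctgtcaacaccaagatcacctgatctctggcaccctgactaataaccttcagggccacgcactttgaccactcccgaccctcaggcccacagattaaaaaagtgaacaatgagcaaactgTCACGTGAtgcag
A match describes letters in this window and was not tested as a binding site.

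Receptors by which phagocytes sense debris, antibody, complement and microbes rose family by family. Of 19 Ms4a membrane protein genes 8 passed the filter on low counts, and all 8 rose (median 5.89). The family summed to only 4.856, 1.814 and 2.169 CPM in the controls. Members could thus pass the filter through the libraries labelled cKO alone, and that all rose was largely set by the filter. Ms4a6d, for example, rose from 0.802, 0.537 and 0.781 CPM to 54.3, 55.8 and 59.8 CPM (log2 fold change 6.31, SE 0.12, adjusted p 2.51e-09). All 5 Fc gamma receptors rose (median 5.01), with Fcgr3 at 9.52, 8.87 and 9.29 CPM in the controls and 303, 296 and 295 CPM in the libraries labelled cKO (log2 fold change 5.01, SE 0.056, adjusted p 3.75e-10). Of 12 complement components and receptors 11 rose and C2 was not called (median 4.41), and C3ar1, the receptor of the C3a peptide, went from 1.83, 1.58 and 1.58 CPM to 205, 209 and 200 CPM (log2 fold change 6.94, SE 0.072, adjusted p 2.74e-10). These 3 families thus had 24 of 25 tested members higher, a count that leaves out members below the filter. Of 11 toll-like receptors 9 rose (median 4.10), among them Tlr7, a sensor of single-stranded RNA (2, 1.99 and 2.78 CPM against 128, 126 and 110 CPM; log2 fold change 5.73, SE 0.13, adjusted p 4.74e-09). Tlr5, the receptor of bacterial flagellin, fell (-1.15, SE 0.24, adjusted p 0.00236), and Tlr3, which senses double-stranded RNA, was not called. Of 6 Siglecs 5 rose and Siglech was not called, and of 19 C-type lectins 12 rose and 3 fell. Paralogs within these families share sequence, so reads may be split between near copies.

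Not every gene of resident microglia rose. Of 13 tested homeostatic microglia genes 11 rose (median 2.42), such as the fractalkine receptor Cx3cr1 (48.8, 47.6 and 45.9 CPM against 450, 456 and 429 CPM; log2 fold change 3.23, SE 0.055, adjusted p 1.57e-09) and the Fc receptor-like gene Fcrls (11.3, 9.2 and 8.81 CPM against 455, 455 and 397 CPM; log2 fold change 5.48, SE 0.11, adjusted p 3.17e-09). Siglech (0.02) and the fructose transporter Slc2a5 (-0.30) were not called. Among 10 monocyte genes 9 rose (median 2.13; 5 of those tested rose when at least 1 CPM in 3 libraries was required), with the integrin Itgal at 0.276, 0.46 and 0.26 CPM and 10.8, 11.3 and 15.2 CPM (log2 fold change 5.23, SE 0.25, adjusted p 2.97e-07). Chil3, a secreted lectin of monocytes and alternatively activated macrophages, held 0.301, 0.741 and 0.304 CPM and 5.44, 5.2 and 14 CPM (log2 fold change 4.20, SE 0.52, adjusted p 9.73e-05), highest in cKO library 3. Of 10 neutrophil genes 2 rose (4 without control library 2) and 2 fell: the receptor Csf3r rose (log2 fold change 4.11, SE 0.13, adjusted p 3.34e-08) and so did the collagenase Mmp8 (3.89, SE 0.37, adjusted p 1.83e-05), while the gelatinase Mmp9 (-2.25, SE 0.12, adjusted p 5.7e-07) and Camp, which encodes an antimicrobial peptide, fell (-1.32, SE 0.45, adjusted p 0.0275). The call of Camp was lost without control library 2 (adjusted p 0.117), cKO library 1 (0.0928) or cKO library 3 (0.0803). The neutrophil genes S100a8, S100a9, Retnlg, Ngp, Ltf and Cxcr2 were not called.

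Few lymphocyte genes could be tested: 5 of the T and NK cell genes and 5 of the B and plasma cell genes passed the filter on low counts. The T cell receptor gene Trac held 0.426, 0.716 and 0.347 CPM in the controls and 0.0245, 0.189 and 0.0555 CPM in the libraries labelled cKO (log2 fold change -2.44, SE 0.64, adjusted p 0.00818), whereas Klrb1c of NK cells held 0.025, 0 and 0.0217 CPM and 0.711, 0.541 and 0.61 CPM (adjusted p 6.78e-05; no fold is given because the controls held few counts). Ighm, the heavy chain of immunoglobulin M, fell from 43.1, 39.2 and 42.1 CPM to 8.44, 10.3 and 7.49 CPM (log2 fold change -2.25, SE 0.11, adjusted p 3.32e-07), while Cd79b, of the B cell receptor, rose from 0.326, 0.435 and 0.217 CPM to 2.35, 2.44 and 3.38 CPM (log2 fold change 3.06, SE 0.31, adjusted p 2.53e-05). The 3 other B and plasma cell genes tested were not called.

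Signals between these cells moved as well. Of 22 chemokine ligands 15 rose and 3 fell (median 3.24). Ccl6 rose from 2, 1.46 and 1.41 CPM to 77.4, 78.6 and 59.4 CPM (log2 fold change 5.47, SE 0.16, adjusted p 2.8e-08), and Cx3cl1, the fractalkine that neurons present to microglia, fell from 198, 212 and 241 CPM to 80.2, 88.8 and 90.8 CPM (log2 fold change -1.33, SE 0.082, adjusted p 1.27e-06). Of 48 interleukins and interleukin receptors 29 rose and 4 fell: Il1a rose from 0.401, 0.409 and 0.434 CPM to 13, 13.1 and 16.2 CPM (log2 fold change 5.08, SE 0.16, adjusted p 3.85e-08), and the nuclear alarm signal Il33 fell from 135, 151 and 160 CPM to 62.6, 61.8 and 66.2 CPM (log2 fold change -1.23, SE 0.07, adjusted p 7.85e-07). Of 28 genes of the TNF and TNF receptor superfamily 19 rose and 2 fell. Tnfrsf1b, a receptor of tumour necrosis factor, rose from 5.81, 5.32 and 5.16 CPM to 108, 104 and 106 CPM (log2 fold change 4.29, SE 0.064, adjusted p 1.09e-09). Cxcr4, the receptor of a chemokine that guides migrating cells, rose from 3.03, 2.53 and 1.58 CPM to 53, 42.4 and 51.3 CPM (log2 fold change 4.37, SE 0.19, adjusted p 2.04e-07).

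Interferon-induced genes were all higher. All 20 tested members rose, with a median log2 fold change of 2.56. Bst2, which tethers budding viruses, held 4.93, 2.56 and 3.08 CPM in the controls and 48, 52.8 and 39.8 CPM in the libraries labelled cKO (log2 fold change 3.74, SE 0.21, adjusted p 8.24e-07), and Irf7, the factor that amplifies interferon production, held 2.53, 2.27 and 2.99 CPM and 34.5, 39.2 and 18.6 CPM (log2 fold change 3.56, SE 0.28, adjusted p 5.45e-06). cKO library 3 was the lowest of its group for both genes and for Oas1a (18.7, 23.2 and 12.1 CPM), yet above every control. Psmb8 and Psmb9, which replace proteasome subunits under interferon, rose with log2 fold changes of 3.59 and 2.98. All 7 Schlafen genes rose (4 of those tested rose when at least 1 CPM in 3 libraries was required), and of 16 guanylate-binding and IRG GTPases 10 rose and 1, Gbp11, fell (adjusted p 0.0239; 0.0528 to 0.074 without control library 1 or 2 or cKO library 2 or 3).

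The promoters of the interferon list were searched for the response element to which interferon-activated factors are known to bind. The letters GAAA, then 2 bases of any kind, then GAAA, on both strands, lay within 250 bases before the start site of 415 of 12728 tested genes (3.26%) and of 7 of 13 interferon-induced genes with a promoter sequence (53.8%). Overlapping matches were counted separately. The promoter of Isg15, a ubiquitin-like protein that is a classic interferon target, is shown because 3 overlapping matches lie in it (chr4:156200819-156201068, minus strand, GRCm38.p6, RefSeq), with the matched letters in capitals.
Isg15: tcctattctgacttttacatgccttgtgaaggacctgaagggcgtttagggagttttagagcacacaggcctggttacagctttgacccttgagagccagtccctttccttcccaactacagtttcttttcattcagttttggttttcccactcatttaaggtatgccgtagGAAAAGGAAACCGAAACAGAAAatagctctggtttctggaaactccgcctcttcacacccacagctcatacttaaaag
Isg15 held 2.05, 0.767 and 1.67 CPM in the controls and 13.6, 14.2 and 6.05 CPM in the libraries labelled cKO (log2 fold change 2.91, SE 0.41, adjusted p 0.00023). As before, the letters describe the window and were not tested as a binding site.

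Class II antigen presentation moved unevenly. Of 8 tested class II genes 6 rose. H2-DMa, which loads peptides, rose from 5.66, 5.6 and 5.97 CPM to 21.8, 24.3 and 25.5 CPM (log2 fold change 2.05, SE 0.089, adjusted p 1.72e-07). For 2 presenting chains control library 1 was within the range of the libraries labelled cKO. These, H2-Aa (9.14, 0.869 and 0.89 CPM against 9.27, 12.6 and 7.07 CPM) and H2-Eb1 (7.81, 1.53 and 1.41 CPM against 7.97, 8.91 and 6.27 CPM), were not called, with adjusted p of 0.141 and 0.122. H2-Ab1, another presenting chain, held 7.21, 1.02 and 0.564 CPM and 10.9, 14 and 10.3 CPM and was called higher (log2 fold change 2.01, SE 0.75, adjusted p 0.0392). Its log2 fold change was 3.88 without control library 1 (adjusted p 4.66e-07), and the call was lost without any other single library (adjusted p 0.0631 to 0.102). Reads of these loci may be assigned poorly where the alleles of the mice differ from the reference.

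Sterol synthesis genes fell and sterol export genes rose. All 19 sterol synthesis genes fell, with a median log2 fold change of -1.77. Sqle, the squalene epoxidase, fell from 142, 128 and 120 CPM to 29.2, 30.2 and 30 CPM (log2 fold change -2.13, SE 0.069, adjusted p 3.85e-08). Of 14 genes of sterol efflux and lipoproteins 13 rose (median 3.46). The exporter Abca1 rose from 44.4, 40.5 and 35.1 CPM to 740, 645 and 607 CPM (log2 fold change 4.05, SE 0.11, adjusted p 1.71e-08), and Npc2, which hands cholesterol out of the lysosome, from 141, 129 and 129 CPM to 648, 605 and 589 CPM (log2 fold change 2.20, SE 0.062, adjusted p 1.91e-08). Mylip, which degrades the lipoprotein receptor and is switched on by oxysterols, rose from 10.9, 10.2 and 8.68 CPM to 102, 88.5 and 87.5 CPM (log2 fold change 3.22, SE 0.099, adjusted p 3.07e-08), while Nr1h3, a receptor for oxysterols, was not called (log2 fold change 0.14, adjusted p 0.448). Apoc4, of the same list, had 0 counts in the controls and 35.7, 24.6 and 25.1 CPM in the libraries labelled cKO, at least 1190-fold higher than a floor of 3 counts over the control group. Its reads cannot always be told from those of the adjacent Apoc2, and the list median is the same with Apoc4 at that bound. The promoter of Hmgcs1, the synthase at the entry to the pathway, is shown as the only one of 14 sterol synthesis promoters (7.1%) with the sterol regulatory element TCACNCCAC, sought on both strands and present in 154 of 12728 promoters of tested genes (1.21%). It lies at chr13:119690101-119690350 on the plus strand (GRCm38.p6, RefSeq), with the element in capitals.
Hmgcs1: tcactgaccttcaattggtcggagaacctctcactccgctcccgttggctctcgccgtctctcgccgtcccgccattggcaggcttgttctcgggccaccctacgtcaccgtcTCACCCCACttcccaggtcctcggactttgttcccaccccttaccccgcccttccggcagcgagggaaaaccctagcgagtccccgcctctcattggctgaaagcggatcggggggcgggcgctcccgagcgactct
Hmgcs1 itself fell from 616, 558 and 492 CPM to 113, 112 and 109 CPM (log2 fold change -2.31, SE 0.083, adjusted p 6.68e-08).

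Lipid droplet genes rose more often than all genes and fell about as often. Of 13 lipid droplet genes 7 rose (53.8%, against 35% of all genes) and 4 fell (30.8%, against 33.6%). Plin2, which coats droplets, rose from 20.2, 18.3 and 17.9 CPM to 243, 292 and 227 CPM (log2 fold change 3.76, SE 0.11, adjusted p 1.91e-08), and Soat1, which esterifies cholesterol, from 45.1, 47.3 and 43 CPM to 148, 144 and 141 CPM (log2 fold change 1.68, SE 0.053, adjusted p 3.55e-08). Pnpla2, a lipase of droplets, rose too (log2 fold change 1.27, SE 0.058, adjusted p 2.22e-07), while Plin3 fell (log2 fold change -0.39, SE 0.058, adjusted p 0.000301). Of 15 genes that make myelin lipids 12 fell and 2, Sptlc1 (0.21) and Elovl1 (0.22), rose slightly, both calls being lost without control library 2. The fatty acid hydroxylase Fa2h fell from 224, 223 and 216 CPM to 62.6, 51 and 49.1 CPM (log2 fold change -2.02, SE 0.089, adjusted p 1.88e-07), and the desaturase Scd1 from 747, 723 and 692 CPM to 240, 248 and 251 CPM (log2 fold change -1.55, SE 0.053, adjusted p 5.27e-08).

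The oligodendrocyte lineage moved in opposite directions at its ends. Of 20 mature oligodendrocyte genes 18 fell (median -1.80). The myelin basic protein Mbp fell from 16200, 16100 and 15700 CPM to 6690, 6890 and 6390 CPM (log2 fold change -1.27, SE 0.058, adjusted p 2.42e-07), and Opalin, a membrane protein of mature cells, from 54.8, 56.2 and 56.6 CPM to 5.32, 6.96 and 6.1 CPM (log2 fold change -3.19, SE 0.094, adjusted p 2.47e-08). The groups did not overlap, and fractional losses differed between members of the sheath. Apod, a lipocalin that binds lipids, was the member that rose (747, 605 and 615 CPM against 2640, 2620 and 2770 CPM; log2 fold change 2.03, SE 0.088, adjusted p 1.76e-07), and the tight junction gene Cldn11 was not called (log2 fold change -0.12, SE 0.081, adjusted p 0.21). Of 13 tested progenitor genes 11 rose (median 1.23). Gpr17, of committed progenitors, rose from 54.2, 63.7 and 64.5 CPM to 782, 622 and 592 CPM (log2 fold change 3.45, SE 0.12, adjusted p 6.25e-08), the matrix protein Matn4 from 7.76, 7.67 and 7.16 CPM to 140, 129 and 131 CPM (log2 fold change 4.15, SE 0.064, adjusted p 1.09e-09), and the sialidase Neu4 from 14.1, 15.5 and 13.8 CPM to 115, 92.7 and 90.5 CPM (log2 fold change 2.78, SE 0.1, adjusted p 8.03e-08). The progenitor genes Ptprz1 and Olig1 were not called.

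Astrocyte genes mostly fell, and the filament did not. Of 15 astrocyte genes 13 fell (median -0.99). The neurotensin receptor Ntsr2 fell from 139, 153 and 145 CPM to 30, 34.2 and 27.9 CPM (log2 fold change -2.24, SE 0.081, adjusted p 6.77e-08), and Slc7a10, a transporter of serine and glycine, from 100, 103 and 111 CPM to 9.86, 13.9 and 11.8 CPM (log2 fold change -3.14, SE 0.11, adjusted p 6.96e-08). Dao, the oxidase that degrades D-serine, was among the 12 largest falls (17.3, 17.7 and 18.7 CPM against 0.858, 1.84 and 1.3 CPM; log2 fold change -3.75, SE 0.22, adjusted p 1.06e-06). Gfap, the intermediate filament of astrocytes, rose from 2460, 2380 and 2010 CPM to 3160, 2900 and 2840 CPM (log2 fold change 0.38, SE 0.085, adjusted p 0.00368), and the folate enzyme Aldh1l1 from 68.8, 71 and 78 CPM to 115, 112 and 121 CPM (log2 fold change 0.68, SE 0.061, adjusted p 1.32e-05). The scar matrix list had 14 of 16 members higher (median 2.21). Its tenascin Tnc rose from 6.11, 6.21 and 4.71 CPM to 29.4, 30.2 and 26 CPM (log2 fold change 2.33, SE 0.12, adjusted p 4.34e-07), and Bgn and Loxl2 were not called.

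Genes listed for motor neurons and for the axon cytoskeleton were mostly lower. All 10 tested motor neuron genes fell (median -1.69), and 9 did without control library 1 (median -1.74). The exception was Isl1, a transcription factor of motor and sensory neurons, at 6.94, 1.97 and 2.02 CPM in the controls and 1.13, 1.41 and 1.61 CPM in the libraries labelled cKO (log2 fold change -1.40, SE 0.49, adjusted p 0.031), with a log2 fold change of -0.55 (adjusted p 0.0697) without control library 1 and an adjusted p of 0.0605 to 0.0948 without any 1 of the libraries labelled cKO. Prph, an intermediate filament gene of motor and sensory neurons, was also highest in control library 1 (166, 107 and 90.8 CPM against 79.7, 73.3 and 56.5 CPM; log2 fold change -0.79, SE 0.22, adjusted p 0.00992), without which its log2 fold change was -0.52 (adjusted p 0.00487). Chodl, a marker of fast motor neurons, fell from 47.5, 42.8 and 39.7 CPM to 7.48, 7.93 and 5.19 CPM (log2 fold change -2.65, SE 0.15, adjusted p 6.8e-07), and Ache, which cleaves acetylcholine, from 216, 242 and 244 CPM to 68.4, 77.9 and 70.5 CPM (log2 fold change -1.70, SE 0.071, adjusted p 1.49e-07). Of 15 axon cytoskeleton genes 14 fell (median -1.12). The neurofilament subunits Nefl (3330, 3020 and 3090 CPM against 871, 827 and 735 CPM; log2 fold change -1.96, SE 0.078, adjusted p 1.14e-07) and Nefm (3590, 3270 and 3190 CPM against 748, 717 and 570 CPM; log2 fold change -2.30, SE 0.11, adjusted p 2.61e-07) were among the 8 largest falls in CPM. Tubb2b, a tubulin of growing neurons, rose (0.37, SE 0.053, adjusted p 0.000228).

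Genes listed for the node and for the synapse showed falls of similar size. Of 18 genes of the node of Ranvier and the axoglial junction 16 fell (median -1.23). The nodal sodium channel Scn8a fell from 380, 394 and 440 CPM to 115, 120 and 120 CPM (log2 fold change -1.77, SE 0.066, adjusted p 7.73e-08), while the adhesion gene Nrcam rose (0.45, SE 0.055, adjusted p 9.24e-05) and Nfasc was not called. Of 22 synapse genes 19 fell (median -1.26), and Stx1a, Homer1 and Camk2a were not called. Complexin Cplx1 fell from 1380, 1410 and 1450 CPM to 454, 494 and 484 CPM (log2 fold change -1.57, SE 0.056, adjusted p 6.72e-08), and Vamp1, a vesicle fusion protein of fast synapses, from 1490, 1470 and 1570 CPM to 394, 466 and 459 CPM (log2 fold change -1.78, SE 0.076, adjusted p 1.59e-07).

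Ion channels and receptors fell family by family. Of 83 potassium channel genes 58 fell and 13 rose (median -0.96). Kcng4, a silent subunit that was among the 12 largest falls, fell from 152, 150 and 154 CPM to 20, 20.4 and 14.2 CPM (log2 fold change -3.06, SE 0.12, adjusted p 1.12e-07). Kcnk6, a two-pore channel, rose from 3.83, 3.2 and 3.86 CPM to 50.8, 51.4 and 53.2 CPM (log2 fold change 3.83, SE 0.085, adjusted p 4.9e-09). Of 11 sodium channel genes 8 fell and 1, the subunit Scn3b, rose (0.57, SE 0.084, adjusted p 0.000281). Of 24 calcium channel genes 18 fell and 3 rose. All 17 GABA-A and glycine receptor genes that were called, of 19 tested, fell (median -1.10), for example Glra1, of spinal inhibition, from 73.8, 89.4 and 104 CPM to 13.1, 11.6 and 17.3 CPM (log2 fold change -2.67, SE 0.17, adjusted p 1.33e-06). Of 26 glutamate receptor genes 23 fell and 1, Grik3, rose (0.30, SE 0.088, adjusted p 0.0141). Grin3b, the NMDA receptor subunit known from motor neurons, fell from 16.4, 17.3 and 15.2 CPM to 1.47, 1.92 and 1.44 CPM (log2 fold change -3.34, SE 0.14, adjusted p 1.65e-07).

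Neuropeptide genes fell about as often as all genes and rose less often. Of 18 neuropeptide genes 7 fell (38.9%, against 33.6% of all genes), 3 rose (16.7%, against 35%) and 8 were not called (median -0.31). Sst, for somatostatin, fell from 58.2, 68.7 and 76.7 CPM to 23.6, 32.8 and 27.9 CPM (log2 fold change -1.27, SE 0.13, adjusted p 3.4e-05), and Gal, the galanin of injured neurons, rose from 3.83, 3.63 and 5.1 CPM to 9.76, 9.56 and 9.9 CPM (log2 fold change 1.21, SE 0.15, adjusted p 9.59e-05). Of 14 axon injury genes 10 rose and 1 fell (median 0.54), with the transcription factor Atf3 at 1.68, 1.2 and 1.06 CPM and 66.9, 65.7 and 43.4 CPM (log2 fold change 5.49, SE 0.23, adjusted p 1.39e-07), lowest in cKO library 3 among its group. Of 13 immediate early genes 10 rose and Egr3 fell (-0.57, SE 0.22, adjusted p 0.0457; 0.051 to 0.161 without control library 2 or 3 or cKO library 2 or 3), while the activity genes Arc and Npas4 were not called. Of 13 fibroblast growth factor genes 11 fell and Fgf2 rose (15.8, 15.7 and 12.9 CPM against 51.3, 40.6 and 43.1 CPM; log2 fold change 1.61, SE 0.11, adjusted p 2.71e-06). Of 29 Hox genes 20 fell and 1, Hoxc13, rose. Hoxc13, which patterns the most posterior body and hair follicles, had 0 counts in the controls and 2.6, 1.97 and 2.69 CPM in the libraries labelled cKO, at least 101-fold higher than a floor of 3 counts over the control group.

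**Figure D2:**
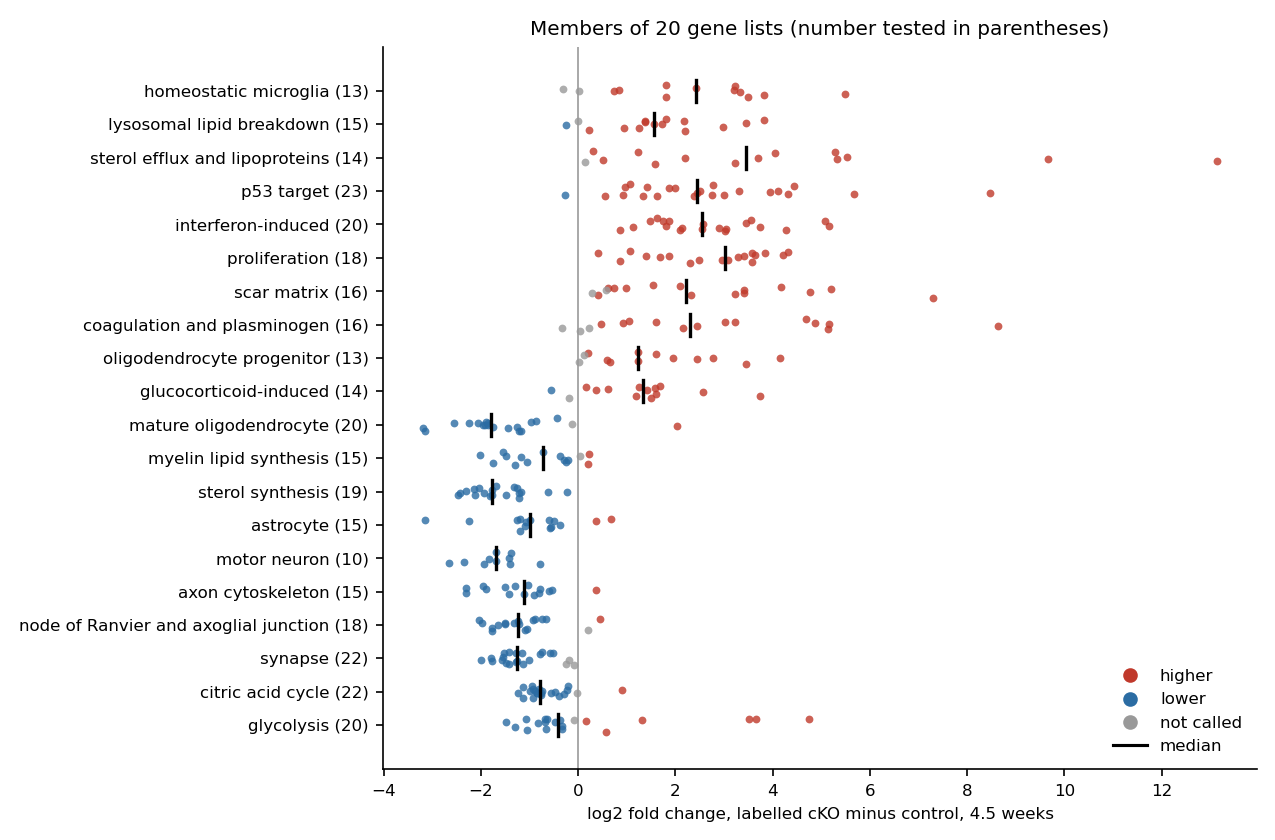
Each point is the log2 fold change at 4.5 weeks, labelled cKO minus control, of 1 tested member of 20 gene lists, with the list median as a bar and points coloured by the call. The interferon-induced and proliferation lists have every tested member higher, the sterol synthesis and motor neuron lists have every tested member lower, and the point furthest to the right is Apoc4, whose fitted value has no upper bound because the controls held 0 counts.

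Most nuclear genes of the respiratory chain and the citric acid cycle fell, and those of the cytosolic ribosome rose. Of 37 complex I subunits 33 fell (median -0.53), for example Ndufa10 from 158, 146 and 166 CPM to 76.5, 83.2 and 84.7 CPM (log2 fold change -0.95, SE 0.064, adjusted p 2.26e-06). All 4 complex II and all 8 complex III subunits fell, as did 11 of 16 complex IV subunits and 14 of 16 ATP synthase subunits. Exceptions included Cox6b2, a subunit known from testis, which rose from 1.85, 1.84 and 2.21 CPM to 9.98, 9.61 and 7.99 CPM (log2 fold change 2.22, SE 0.15, adjusted p 2.35e-06), and Atp5g2 (0.51, SE 0.044, adjusted p 1.03e-05). Of the 15 mitochondrially encoded genes tested 5 fell (33.3%, near the 33.6% of all genes), with log2 fold changes down to -0.68 for mt-Nd4l. Of 22 citric acid cycle genes 20 fell (median -0.78) and Idh2 rose (0.89, SE 0.088, adjusted p 2.38e-05). Of 78 mitochondrial ribosomal protein genes 46 fell and 6 rose (median -0.25). The cytosolic ribosome moved the other way: 84 of 87 genes named as its proteins or their near paralogs rose (median 1.004) and Rpl3l, the copy used by striated muscle, fell (-3.02, SE 0.85, adjusted p 0.0119), with control library 2, which carried muscle transcripts, the highest at 1.71 CPM. Rpl32 rose from 103, 102 and 102 CPM to 277, 281 and 273 CPM (log2 fold change 1.44, SE 0.044, adjusted p 3.14e-08), and the elongation factor Eef1a1 from 1590, 1470 and 1460 CPM to 4800, 4490 and 4570 CPM (log2 fold change 1.62, SE 0.062, adjusted p 9.06e-08), and reads of both may be shared with processed pseudogenes. Of 39 genes named as proteasome subunits 21 fell and 7 rose.

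Glycolysis genes fell more often than all genes. Of 20 glucose uptake and glycolysis genes 13 fell (65%, against 33.6% of all genes) and 6 rose (30%, against 35%). The hexokinase of myeloid cells, Hk3, rose from 1.35, 1.51 and 1.32 CPM to 34.7, 39.9 and 38 CPM (log2 fold change 4.75, SE 0.097, adjusted p 3.44e-09), Hk2 from 5.13, 5.16 and 4.47 CPM to 57.7, 57.1 and 53.2 CPM (log2 fold change 3.51, SE 0.08, adjusted p 5.79e-09), and the lactate exporter Slc16a3 from 1.63, 1.99 and 2.21 CPM to 27.4, 27.8 and 19.2 CPM (log2 fold change 3.67, SE 0.18, adjusted p 3.74e-07). The phosphofructokinase Pfkp fell (log2 fold change -1.29, SE 0.055, adjusted p 1.58e-07). A fall was also called for Eno2, the enolase of neurons, from 936, 973 and 1050 CPM to 320, 373 and 368 CPM (log2 fold change -1.48, SE 0.076, adjusted p 4.56e-07).

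**Figure D3:**
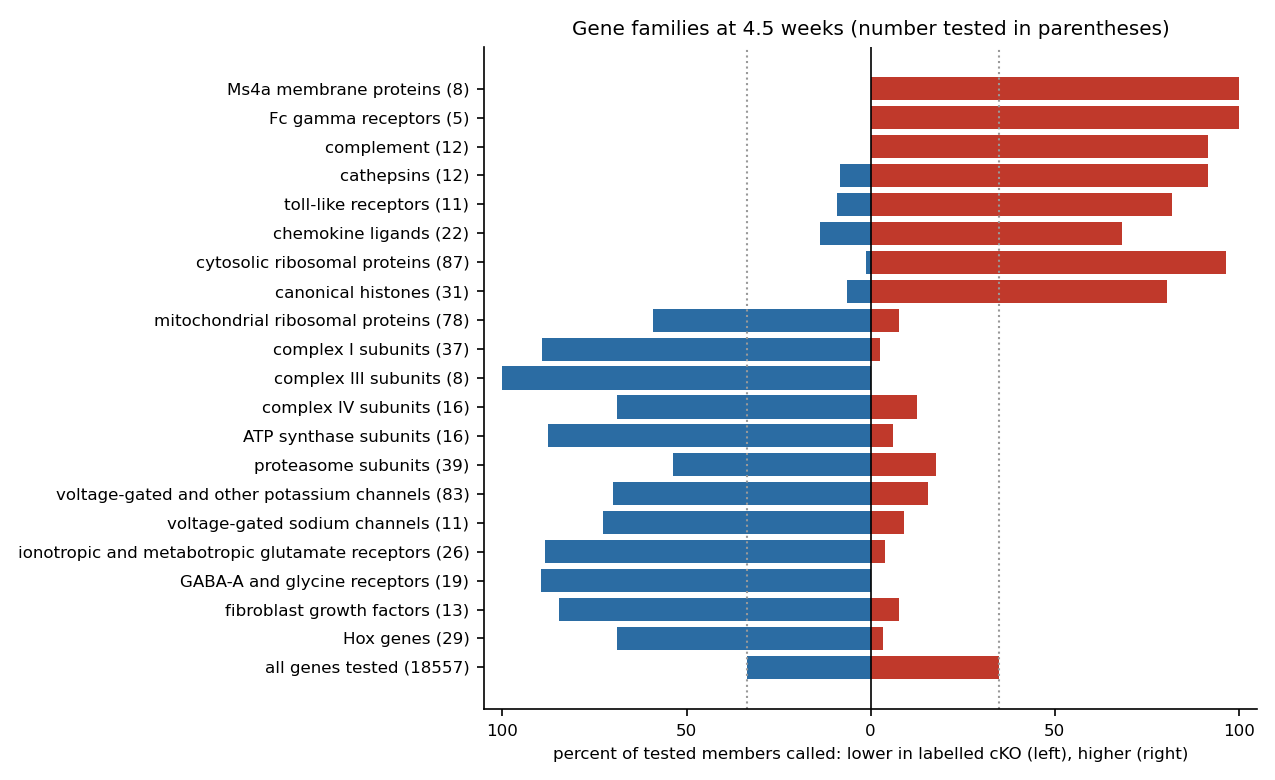
Bars give the percent of tested members of 20 gene families called lower (left) or higher (right) at 4.5 weeks, with all 18557 genes tested as the last bar and dotted lines at its 33.6% and 35%. Families of phagocyte receptors and the cytosolic ribosome lie on the right, and families of the respiratory chain, ion channels and transmitter receptors on the left.

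Most p53 target genes rose. The shares that rose of integrated stress response genes (57.1%) and unfolded protein response genes (75%) were also above the 35% of all genes. Heat shock protein genes rose and fell in shares near those of all genes. Of 23 p53 targets 22 rose (median 2.45). The arrest gene Cdkn1a rose from 32.5, 25 and 28.1 CPM to 425, 445 and 441 CPM (log2 fold change 3.94, SE 0.095, adjusted p 8.06e-09), and the cyclin Ccng1 from 60.2, 54.7 and 53 CPM to 447, 478 and 427 CPM (log2 fold change 3.01, SE 0.071, adjusted p 7.04e-09). Zmat3, a p53 target that binds RNA, fell slightly (127, 137 and 139 CPM against 117, 111 and 109 CPM; log2 fold change -0.26, SE 0.054, adjusted p 0.0023). Of 21 integrated stress response genes 12 rose and 5 fell (2 fell with control libraries 1 and 2 left out together). Gdf15 rose from 0.225, 0.0511 and 0.108 CPM to 53.1, 44.6 and 41.8 CPM (log2 fold change 8.47, SE 0.23, adjusted p 1.41e-08), whereas Asns, which makes asparagine and is a standard target of this response, fell from 82.1, 82.5 and 84.3 CPM to 34.3, 38.8 and 42.7 CPM (log2 fold change -1.10, SE 0.077, adjusted p 2.63e-06). Of 16 genes of the unfolded protein response 12 rose and 2 fell (median 0.61), led by Edem1, of protein disposal from the endoplasmic reticulum (26.6, 32.6 and 28.8 CPM against 166, 178 and 169 CPM; log2 fold change 2.55, SE 0.077, adjusted p 2.94e-08). Of 23 heat shock protein genes 7 rose (30.4%, against 35% of all genes), 6 fell (26.1%, against 33.6%) and 10 were not called (median 0.035).

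Hormone, clock, iron and oxygen genes also moved. Of 14 glucocorticoid-induced genes 12 rose (median 1.34). Fkbp5, a chaperone of the receptor, rose from 30, 26.5 and 30.1 CPM to 166, 154 and 197 CPM (log2 fold change 2.58, SE 0.099, adjusted p 9.39e-08), and Tsc22d3, also a target of the receptor, fell from 144, 150 and 166 CPM to 95.9, 102 and 115 CPM (log2 fold change -0.55, SE 0.08, adjusted p 0.000267). Of 16 clock genes 10 fell and 5 rose: Dbp fell from 82.4, 78.1 and 83.3 CPM to 32.3, 30.1 and 30.5 CPM (log2 fold change -1.39, SE 0.054, adjusted p 1e-07), Per1, which is also glucocorticoid-induced, rose from 42.3, 49.9 and 52.8 CPM to 138, 131 and 142 CPM (log2 fold change 1.501, SE 0.082, adjusted p 6.4e-07), and Arntl was not called. The hour at which the cords were taken is not given in the sources used here, and a difference in hour between the groups was not tested. Of 13 iron and haem genes 10 rose, among them Hmox1, which opens haem (6.61, 5.32 and 6.16 CPM against 72.4, 69.6 and 70.1 CPM; log2 fold change 3.55, SE 0.083, adjusted p 6.92e-09), while the transferrin receptor Tfrc fell (log2 fold change -0.76, SE 0.079, adjusted p 3.31e-05). Of 13 hypoxia targets 8 rose and 3 fell: P4ha1 rose (log2 fold change 1.26, SE 0.099, adjusted p 5.43e-06) and the angiogenic factor Vegfa fell from 60.9, 66.8 and 56.6 CPM to 32.9, 28.5 and 28.4 CPM (log2 fold change -1.04, SE 0.083, adjusted p 6.47e-06).

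Cell division genes were raised. All 18 proliferation genes rose (median 3.01), for example Mcm3, of the replicative helicase, from 4.53, 4.01 and 3.91 CPM to 21, 24.8 and 24.2 CPM (log2 fold change 2.49, SE 0.1, adjusted p 1.52e-07), and Cdk1, the kinase of mitosis, from 0.827, 1.1 and 0.846 CPM to 7.85, 13.1 and 13.5 CPM (log2 fold change 3.63, SE 0.25, adjusted p 2.5e-06). cKO library 1 was the lowest of its group for both. Of 31 histone genes 25 rose and 2 fell (median 1.29), and histone transcripts that lack a poly(A) tail are captured poorly by poly(A) selection.

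Vessels and blood gave contrasting values. Of 13 endothelial genes 8 rose and 1 fell (median 0.36), with Cldn5, of the tight junctions of brain vessels, at 26.7, 21.7 and 22.8 CPM and 55.5, 41.1 and 54.3 CPM (log2 fold change 1.09, SE 0.13, adjusted p 6.6e-05). Without control library 2 the number higher was 5, and without control libraries 1 and 2 it was 4. Apelin, Apln, fell from 79.7, 73.2 and 69.8 CPM to 6.57, 7.12 and 7.74 CPM (log2 fold change -3.38, SE 0.084, adjusted p 9.46e-09), and its receptor Aplnr from 30.2, 28.5 and 15.7 CPM to 1.72, 2.41 and 0.804 CPM (log2 fold change -3.91, SE 0.37, adjusted p 1.73e-05). Globin transcripts of red cells fell: Hbb-bs from 22.3, 19.2 and 24.1 CPM to 0.883, 3.38 and 0.527 CPM (log2 fold change -3.78, SE 0.5, adjusted p 0.000165) and Hba-a2 from 14.7, 12 and 14.4 CPM to 1.15, 2.14 and 0.721 CPM (log2 fold change -3.35, SE 0.32, adjusted p 1.82e-05), with cKO library 2 the highest of its group for both. All 5 erythroid genes tested fell, and near-identical globin copies share reads. How much blood each cord held was not tested. Of 16 coagulation and plasminogen genes 13 rose (median 2.31), among them Plaur, the receptor of urokinase (0.827, 0.613 and 0.608 CPM against 23.5, 24.2 and 25.8 CPM; log2 fold change 5.16, SE 0.13, adjusted p 1.16e-08). Of 12 mural cell genes 8 rose, and 5 did with control libraries 1 and 2 left out together.

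Under the conditions given above for level and overlap, the largest fall was in Smyd1, a histone methyltransferase known from striated muscle. It held 17, 16.9 and 19.6 CPM in the controls and 0.736, 1.14 and 0.86 CPM in the libraries labelled cKO (log2 fold change -4.29, SE 0.17, adjusted p 1.02e-07). The 3 controls were level for Smyd1, unlike Myh2 and Acta1, which were high in control library 2 alone. Myh2, the myosin of fast oxidative fibres, held 0.326, 68.1 and 1.43 CPM in the controls, and Acta1, skeletal actin, 1.55, 53.2 and 3.78 CPM.

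Single control libraries were therefore checked for transcripts of neighbouring tissue. A gene counted as high in 1 library alone when it reached 1 CPM there and at least 4 times the next library of its group, with 0.1 CPM added to both. By this rule 149 genes were high in control library 1 alone, 35 in control library 2, 2 in control library 3, and 4, 15 and 6 in cKO libraries 1, 2 and 3. Those of control library 1 summed to 1805 CPM there, and those of control library 2 to 427.3 CPM. In control library 1 they included Igf2 (229 CPM against 44.4 and 24.2 CPM in the other controls), a growth factor made in the meninges, and the fibroblast proteoglycans Dcn (80.3 CPM) and Fmod (75.3 CPM). The nociceptor genes Avil (36, 0.256 and 0.608 CPM) and Scn10a (27.1, 0.0511 and 0.0217 CPM in the controls) were high there too, as were keratins of the epidermis such as Krt5 (6.01 CPM against 0.0511 and 0.0651 CPM). Avil, Scn10a and Krt5 were chosen after their values were seen. In control library 2 the leading genes were Myh2, Acta1, Tnnt3 (0.902, 36.2 and 3.41 CPM) and Atp2a1 (0.2, 34.6 and 2.47 CPM), all of skeletal muscle.

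**Figure D4:**
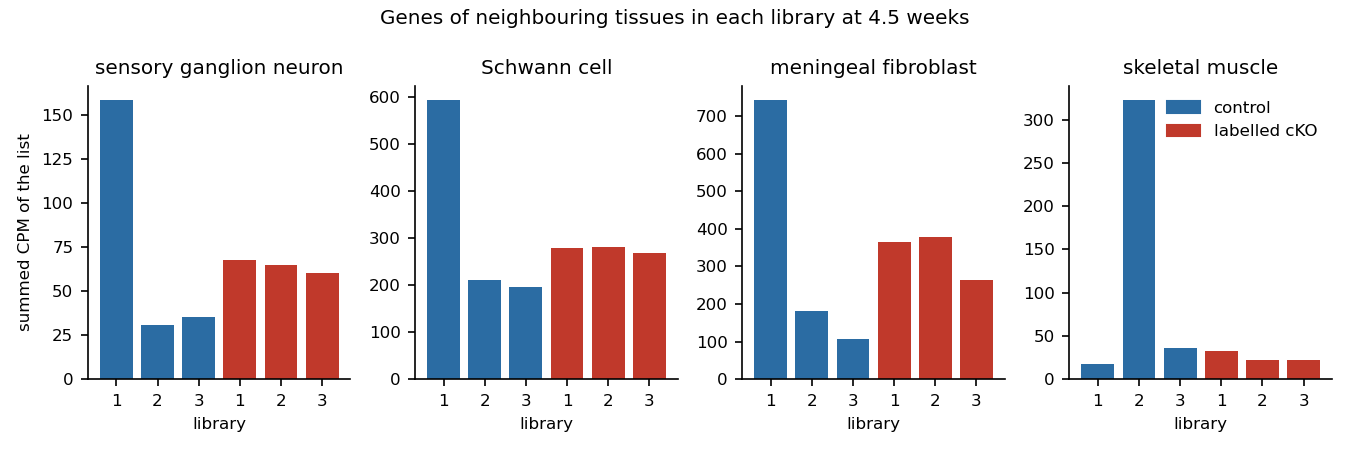
Summed CPM, in each of the 6 libraries of 4.5 weeks, of genes listed for sensory ganglion neurons, Schwann cells, meningeal fibroblasts and skeletal muscle (bars start at 0; 1 bar per library). Control library 1 is the highest for the first 3 lists (158.6, 593 and 743.4 CPM) and control library 2 for muscle (322.7 CPM). The libraries labelled cKO lie between control library 1 and the other controls for the first 3. For the ganglion list this position rests on Runx1, a gene also known from myeloid cells.

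Summed over the lists, ganglion neuron genes stood at 158.6, 30.76 and 35.07 CPM in the controls and 67.64, 64.95 and 60.28 CPM in the libraries labelled cKO. Schwann cell genes stood at 593, 210.4 and 195.2 CPM against 277.7, 281.4 and 267.2 CPM, and meningeal fibroblast genes at 743.4, 180.2 and 106 CPM against 366.3, 377.1 and 262.6 CPM. For these 3 lists each library labelled cKO was above controls 2 and 3 and below control 1. For the ganglion list this order rested on Runx1, a gene also known from myeloid cells. Without Runx1 the libraries labelled cKO were not above both controls 2 and 3 for that list. Muscle genes stood at 17.05, 322.7 and 35.65 CPM in the controls and 31.96, 22.56 and 21.84 CPM in the libraries labelled cKO, with control 2 alone apart. Within the ganglion list the libraries labelled cKO did not follow 1 pattern. Avil held 11.3, 13 and 9.98 CPM and Trpv1 2.38, 2.11 and 1.64 CPM in them, whereas Scn10a held 0, 0.216 and 0.0277 CPM. Runx1, listed as a ganglion gene but also known from myeloid cells, rose from 3.68, 1.84 and 1.45 CPM to 39.9, 34 and 30.3 CPM (log2 fold change 3.91, SE 0.28, adjusted p 3.2e-06), in the same libraries as the phagocyte genes above.

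Calls on genes of these tissues depended on the single libraries. Of the 99 tested genes that were high in control library 1 alone, 14 were called higher, 22 lower and 63 were not called, and of the 26 for control library 2, 11 were called lower and 15 were not called. Leaving out control library 1 changed the meningeal fibroblast list from 4 lower and 0 higher of 12 to 0 lower and 6 higher, and turned its median from -0.585 to 0.799. The Schwann cell list went from 3 higher and 4 lower of 14 to 6 higher and 2 lower, and its median from -0.746 to 0.531. Border macrophage genes, of the macrophages along vessels and meninges, went from 5 of 10 higher to all 10 higher without that library. Stab1, a scavenger receptor of that list, was high in either case, at 14.4, 8.84 and 8.48 CPM in the controls and 398, 366 and 307 CPM in the libraries labelled cKO (log2 fold change 5.08, SE 0.21, adjusted p 1.2e-07). Muscle genes went from 10 lower and 0 higher of 16 to 3 lower and 2 higher without control library 2. Avil, not called with all 3 controls, was higher without control library 1 (log2 fold change 4.66, adjusted p 2.95e-07). Igf2 was called lower with all libraries (adjusted p 0.0354) and not without control library 1 (0.104). Directions for ganglion, meningeal, Schwann and muscle genes are therefore not given here. Over all genes, 685 calls were lost and 599 gained without control library 1, 1104 were lost and 338 gained without control library 2. Without any 1 of the other 4 libraries 744 to 1107 were lost and 269 to 458 gained, and none of the calls turned to the opposite direction.

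The effect at 4.5 weeks was then tested against the effect at 4 weeks in a fit of all 12 libraries. That fit called 3866 genes higher (20.1%) and 3313 lower (17.2%) among the 19278 tested at the earlier time. The effect differed for 7841 of 19278 genes (40.7%), lying above the effect at 4 weeks for 3613 (18.7%) and below it for 4228 (21.9%). At 4 weeks the 3 controls had 0 to 2 counts of Xist while 2 of the 3 libraries labelled cKO had 13563 and 14773 and the third had 3, so sex was partly mixed with the label at that time, and its part in the difference was not tested. Most members of the neuronal lists had a lower effect: 14 of 15 axon cytoskeleton, 17 of 22 synapse, 15 of 18 node and 9 of 10 motor neuron genes did so. The same held for 34 of 37 complex I subunits, 53 of 78 mitochondrial ribosomal proteins and all 5 erythroid genes. The effect was higher for 13 of 15 genes of lysosomal lipid breakdown, 12 of 13 progenitor genes, 11 of 14 genes of sterol efflux and 75 of 87 cytosolic ribosomal proteins.

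**Figure D5:**
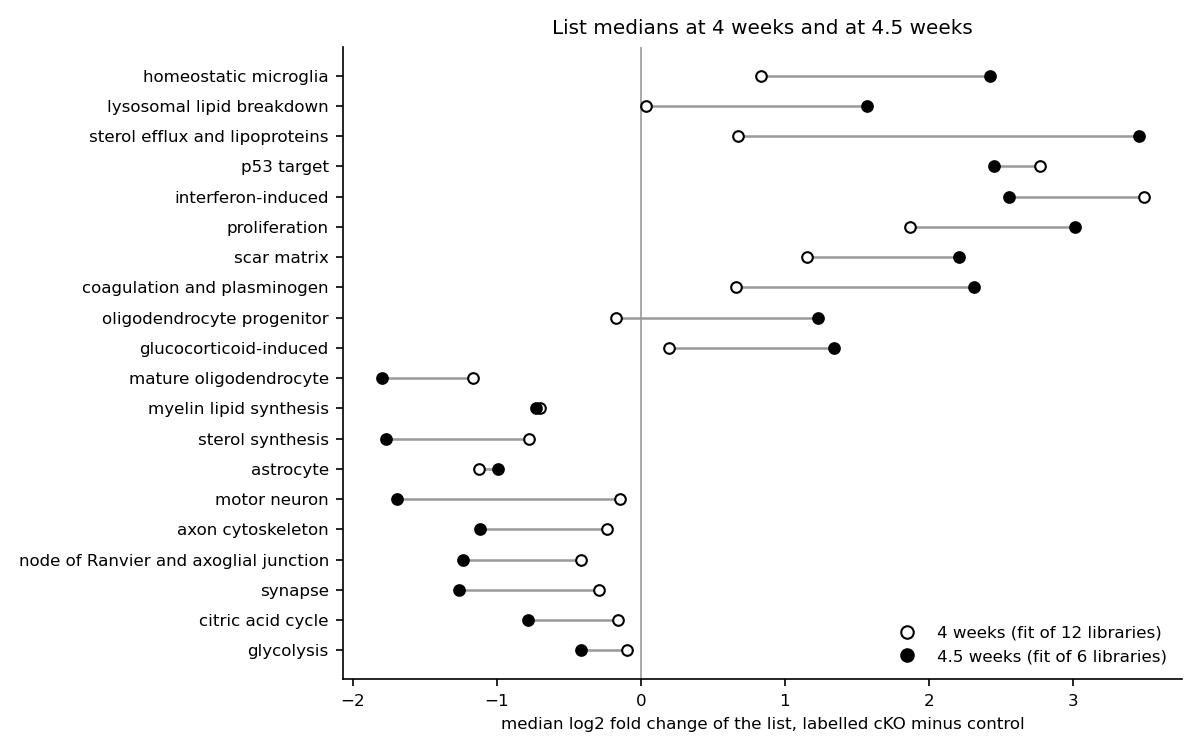
Median log2 fold change, labelled cKO minus control, of 20 gene lists at 4 weeks (open circles, from the fit of 12 libraries) and at 4.5 weeks (filled circles, from the fit of 6 libraries). The medians of the sterol efflux, progenitor and lysosomal lipid breakdown lists lie further to the right at 4.5 weeks, those of the motor neuron and synapse lists further to the left, and those of the p53 target, astrocyte and myelin lipid lists lie close together.

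Of 20 interferon-induced genes 0 differed between the times, with medians of 3.49 at 4 weeks and 2.56 at 4.5 weeks, and a p that misses the threshold does not show equal effects. Of 15 myelin lipid genes 3 had a higher and 2 a lower effect, and of 20 mature oligodendrocyte genes 3 and 9. Among p53 targets 9 of 23 had a lower effect and 0 a higher one. Among progenitor genes Gpr17 was called lower at 4 weeks (-0.67) and higher at 4.5 weeks, with a difference of 4.11 (adjusted p 8.39e-07). Neu4 was not called at 4 weeks (-0.03) and was higher at 4.5 weeks, with a difference of 2.81 (adjusted p 2.22e-07). Psap, the precursor of the saposins that help digest sphingolipids, was at 0.03 at 4 weeks and 1460, 1510 and 1460 CPM against 3720, 3730 and 4060 CPM at 4.5 weeks, with a difference of 1.34 (adjusted p 4.71e-07).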

How the data were processed

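Poly(A)-selected RNA of whole spinal cord was sequenced with a TruSeq v2 kit; as its reads carry no strand, overlapping and antisense genes cannot be told apart. The authors deposited expected counts per gene. Per the submitters' processing notes STAR, RSEM and the mm39 build were used; their versions and the annotation release are not given in the sources used here. The expected counts were rounded to whole numbers and tested with edgeR 4.0.16 in R 4.3.3 (quasi-likelihood F-test, trimmed mean of M values, filterByExpr, Benjamini-Hochberg), 3 against 3 libraries of 4.5 weeks. The difference between the times was an interaction contrast in a fit of 12 libraries. Scripts were tested on simulated data with known changes. Alternatives used DESeq2 1.42.0, limma 3.58.1, other scalings, filters and left-out libraries.

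The members and lists, 46 gene lists and 61 families by symbol, were chosen with earlier results of these data known. Named were the 12 largest rises and falls in log2 fold change and the 8 in CPM, among called genes whose log2 CPM averaged 1 or more, with disjoint groups and a symbol that is not provisional; up to 3 called members per list and direction and 2 per family, by smallest p; the 4 largest differences between the times in each direction; and the 4 genes highest in each library that held genes high in it alone. Members that are exceptions to a list's direction, or not called, were named after their values were seen. Nothing in the sources used here says more of how the animals were bred or housed. Whether breeding or housing differed between the groups is not known. The p-values set each group difference against the spread between animals within the groups. Promoter sequences came from RefSeq on GRCm38.p6, matched by symbol for 12728 of 18557 tested genes, and no coordinates of the counted build are printed. Some genes that the rule names are not reported here.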

Additional observations from a re-analysis of the deposited data

Results flagged for a closer look

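The effect of the label on expression was not the same at both times for 7841 of 19278 genes, by the interaction contrast in the fit of 12 libraries. Among genes with a symbol that is not provisional, whose log2 CPM averaged 1 or more at 4.5 weeks and whose groups did not overlap at that time, the largest differences above the effect at 4 weeks, on the log2 scale, were those of Gp1bb (6.91), a platelet glycoprotein gene, Gpnmb (6.88), the phagocyte gene Ms4a7 (5.79) and Wfdc17 (5.2), a secreted protease inhibitor of macrophages. Gp1bb held 0.301, 0.562 and 0.325 CPM in the controls of 4.5 weeks and 32.8, 22.1 and 32.6 CPM in the libraries labelled cKO, and it overlaps Sept5 on the same strand, so its reads may be shared. Under the same conditions the largest differences below it were those of Xist (-11.96), Hbb-bs (-3.43), Hba-a2 (-3.04) and Grin3b (-2.87). For Xist the controls of 4 weeks held 2, 0 and 2 counts and the libraries labelled cKO 13563, 14773 and 3, so the difference moves with the sex of the animals.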

How the results depend on the processing

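With DESeq2 size factors, upper quartile scaling, no filter, a filter of 1 CPM, DESeq2, limma-voom, a robust spread or all 12 libraries, 5925 to 6590 genes were higher and 5822 to 6440 lower at 4.5 weeks, and no call turned direction. Against a 1.5-fold change 3585 were higher, 2796 lower and 2309 differed between the times. Leaving out single libraries gave 6063 to 6431 higher, 5776 to 6208 lower, 6979 to 7760 that differed, and 0.27 to 0.40 for Ddx20. Without controls 1 and 2 Ddx20 was at 0.33 (adjusted p 0.0933), and against a 1.5-fold change its 0.33 had an adjusted p of 1; a control group of 1 library is assumed there to vary like the other group. With the replicate block 6382 were higher and 6105 lower; same-numbered libraries correlated at 0.0059, 0.0113 and 0.0715, so the numbers were not taken to pair them. The median of all genes lay between 0.0081 and 0.0965.

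Some genes that were not called changed sign; the cause was not tested. Avil was at 2.70 with limma-voom, 2.01 with the replicate block, 4.66 without control 1 and 4.19 without controls 1 and 2. Arsa and Olig1 were at -0.0047 and -0.0024 with DESeq2 size factors, -0.011 and -0.0086 with upper quartile scaling, -0.0199 and -0.0174 with no filter, -0.0048 and -0.0024 with DESeq2, and -0.0665 and -0.0781 without controls 1 and 2. Siglech was at -0.0081 with no filter, -0.0129 with limma-voom, -0.008 with the block and -0.1273 without controls 1 and 2. Ngp was at 0.0034 with limma-voom and 0.2787 without controls 1 and 2. With single libraries left out, values ran from -0.0998 to 0.0867 for Arntl, -0.028 to 0.0291 for Arsa, -0.6731 to 4.6602 for Avil, -0.0731 to 1.6461 for Dcn, -0.345 to 0.3718 for Ngp, -0.047 to 0.0694 for Olig1, -0.17 to 0.4673 for S100a9, -0.1927 to 0.1955 for Siglech and -0.1934 to 0.0017 for Stx1a. Depth left 5 T and NK cell genes and 5 B and plasma cell genes above the filter.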

Other observations

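Collagen, laminin and integrin genes were more often higher than lower at 4.5 weeks. Of 43 collagen genes 24 rose and 3, Col19a1, Col25a1 and Col23a1, fell (the last not without control library 1 or 2 or cKO library 1 or 3), with a median log2 fold change of 0.742 against 0.027 over all genes. Of 11 laminin genes 6 rose and 0 fell, and of 25 integrin genes, the receptors of such matrix, 18 rose and 3, Itga3, Itgb4 and Itgb8, fell (median 1.119). Of 16 matrix metalloproteinase genes 9 rose and 4 fell, and of 23 ADAMTS protease genes 5 rose and 9 fell. Of 68 protocadherin genes, cell adhesion genes of neurons, 43 fell and 6 rose (median -0.52), and reads of the clustered members are partly shared. Of 11 ependymal cell genes 7 rose and 0 fell (median 0.836). Foxj1 rose from 33.3, 33.9 and 34.5 CPM to 45.1, 44.3 and 43.3 CPM (log2 fold change 0.38, SE 0.051, adjusted p 0.000161). The other members that rose were low, at no more than 2.68 CPM in any control.

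Transcripts with 0 counts in all 3 controls of 4.5 weeks, chosen after their values were seen, included several with clear levels in every library labelled cKO. Against a floor of 3 counts over the control group, Bach2os, annotated antisense within the lymphocyte factor gene Bach2, was at least 229-fold higher, and its reads cannot be told from those of Bach2 without strand. The matrix protease Mmp27 was at least 57.3-fold higher, the odorant receptor Olfr110 at least 55.8-fold, the coagulation factor F7 at least 52.6-fold and the TNF family ligand Tnfsf18 at least 36.2-fold. At 4 weeks the libraries labelled cKO held 20 counts of Apoc4, against 3268 at 4.5 weeks, and 245 counts of Hoxc13, against 276.

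The change differed with gene length, by little in the median and by more in the share of genes called lower. From the shortest to the longest of 5 bins of gene model length (GENCODE M21, 97.73% of the tested genes), the median log2 fold change went from 0.112 to -0.062, and the share of genes called lower from 25.014% to 42.68%. Its part in the family results was not tested.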
